A study of Mus musculus with 386 samples.

Results

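Translation initiation factor genes were taken as the gene rows of the count table whose symbol starts with Eif and a digit, without the pseudogene suffix -ps. They were 56 of 54658 gene rows, and the other 9 of the 65 rows with that start carry the suffix. The members fall into 8 roles, and 1 further symbol, Eif2c5, belongs to none of them. Germ cells of mouse ovaries were picked by hand before birth, on embryonic day 17.5 (E17.5), and after it, at 2.5 days (P2.5) and at 6.5 days (P6.5), and a Smart-seq2 library was made of each. Smart-seq2 copies and amplifies the polyadenylated RNA of a single cell. The labels give no strain, genotype, treatment or animal for any library, so each stage was treated as 1 sample of many cells, with no replicate check and no test. Cells of 1 stage are not replicates, and a p-value over them is not given. The title of the series concerns the choice between dormancy and growth of oocytes in primordial follicles.

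Initiation factors bring the small ribosomal subunit, the initiator tRNA and the capped mRNA together. The eIF2 complex delivers the tRNA, eIF2B is the exchange factor that recharges eIF2, and 4 kinases act on the alpha subunit of eIF2. The eIF4 factors read the cap and unwind the leader, eIF3 holds the parts together, and eIF1, eIF1A and eIF5 set the start codon. Oocytes store many mRNAs untranslated, and several factors have a second gene copy, among them Eif4e1b, a cap-binding paralogue known from oocytes of vertebrates.

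Of 386 libraries 22 were from E17.5, 47 from P6.5, and the rest were P2.5 libraries. Of the P2.5 libraries, 24 pairs differed little more than sampling of reads would give, and each pair was summed as 1 cell, which left 362 cells in all. Gene counts per library were 1016746 to 16125066 at E17.5, 435560 to 23982709 at P2.5 and 5714357 to 15799302 at P6.5. A germ cell marker list of 6 genes, among them Ddx4 and Dazl, summed to a median of 3228, 3876 and 5156 CPM (CPM stands for counts scaled to a common total of gene counts) at the 3 stages. In E17.5 libraries 8, 10, 15 and 16 it reached only 246.6 to 705 CPM, so comparisons with E17.5 were also made without these 4. In that order they held 16125066, 9021432, 9621586 and 7561232 of the 141253010 gene counts summed at E17.5. Each was above the median E17.5 library, at 6394864, so they weigh more in the E17.5 sums than their number. Of 13 granulosa and pregranulosa markers those libraries held 2.22 to 2026 CPM. The median was 85.1 CPM in the other 18 libraries and 63.2 CPM in all 22, against 4.44 CPM at P2.5 and 3.87 CPM at P6.5. Of the 4 libraries, 1 held 97392 CPM of 3 mast cell markers, which goes against a germ cell label. The median sum of 5 erythroid markers was 1734, 9.40 and 0.988 CPM in the same order. The part of these other transcripts in the E17.5 values was not tested.

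Levels were CPM of the counts summed over the cells of a stage. A member was measured in a comparison with at least 1 CPM in either stage and a count in at least 3 cells, and it was called with a 2-fold ratio after 0.5 CPM was added. Of 53 members measured in P2.5 over E17.5, 11 were called higher in P2.5, against 22.6% of all genes measured, and 9 were called lower, against 32.4%. These shares of members, 20.8% and 16.98%, are near or under the background. The median log2 ratio of the members was -0.07, against -0.26 over all genes. In P6.5 over P2.5, 2 of 52 measured members were called higher, against 6.90% of all genes, and 0 lower, against 9.30%. Their median log2 ratio was -0.16, against -0.18 over all genes. The summed members took 1.28%, 1.399% and 1.26% of the counts of the median cell at the 3 stages.

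All of these directions are shares of gene counts. RNA per spike-in count differed strongly between stages, with a median of 81.3, 465 and 3203 gene counts per spike-in count in that order of stages. Summed initiation factor counts per spike-in count were 1.01, 6.81 and 41.7 in the median cell. On that scale 52 of the 53 members were higher in P2.5 than in E17.5, with Eif2ak2 at a log2 ratio of -0.76 as the exception. Of the 53 members, 49 were called higher on that scale, against 79.6% of all genes, and 0 lower, against 5.63%. In P6.5 over P2.5, all 53 members measured on that scale were called higher, against 94.9% of all genes, and 0 lower, against 0.123%. The filter on that scale keeps 1 more member in that comparison. The sources used here do not give the amount of spike-in added per cell.

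**Figure D1:**
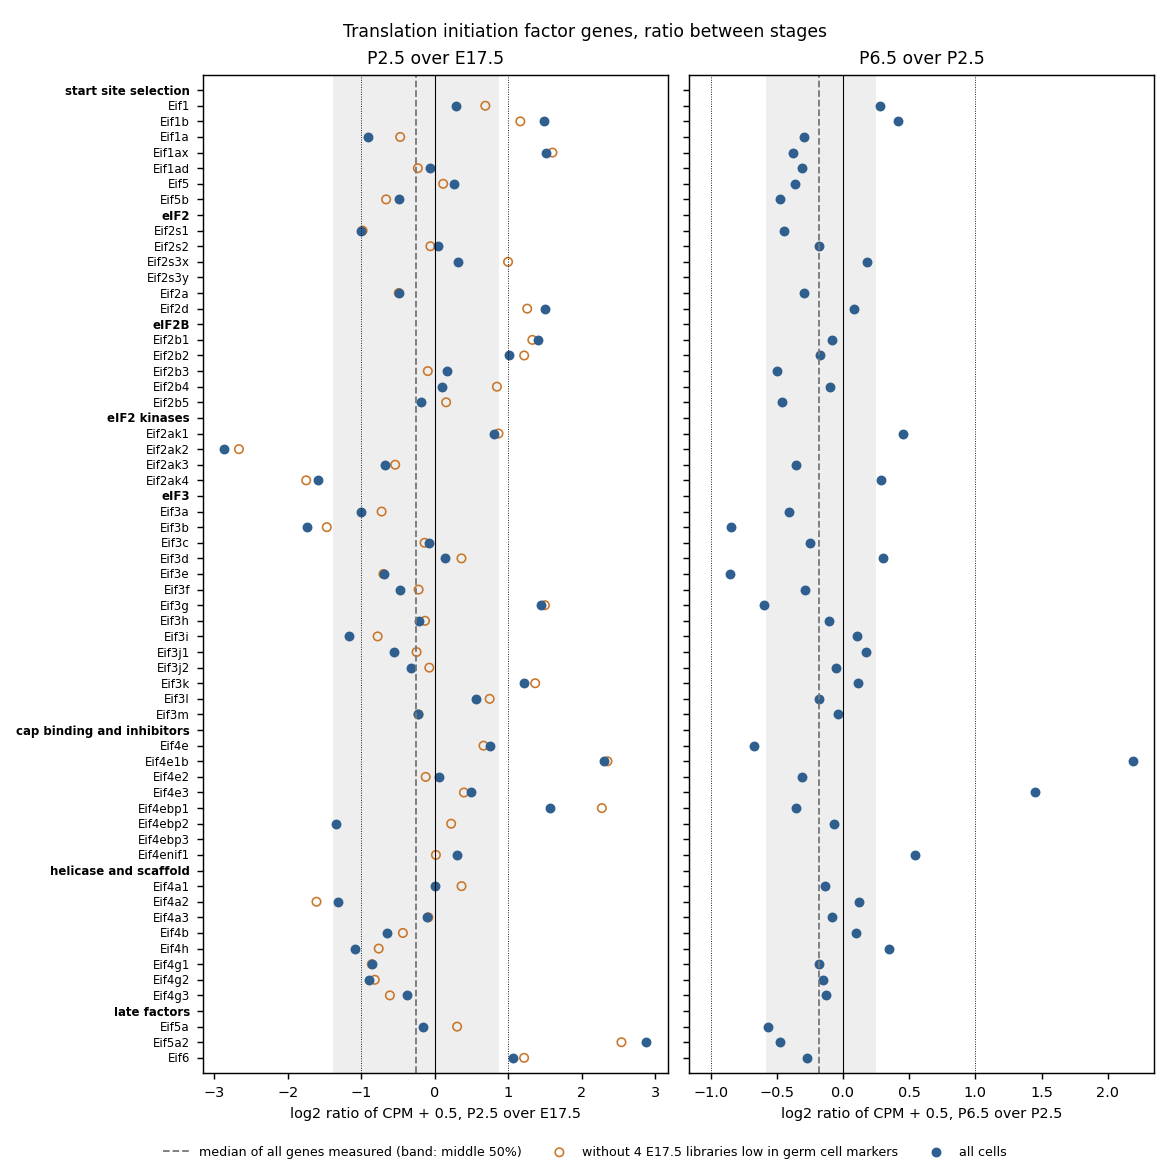
Log2 ratio of CPM with 0.5 added, for each measured initiation factor gene, P2.5 over E17.5 on the left and P6.5 over P2.5 on the right, grouped by role. Filled points use all cells and open points leave out the 4 E17.5 libraries low in germ cell markers. Dotted lines mark 2-fold, the dashed line is the median of all genes measured and the grey band their middle 50%. On the left Eif5a2 stands highest at 2.88 and Eif2ak2 lowest at -2.87, and on the right Eif4e1b at 2.19 and Eif4e3 at 1.45 stand beyond 2-fold.

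Among the start codon factors the balance of Eif1ax and Eif1a differed between stages. Eif1ax and Eif1a both code for eIF1A, which keeps the scanning subunit open. Eif1ax had 20.3, 136.7 and 339 CPM in the lowest, median and highest cell at E17.5, then 49.7, 413 and 911 CPM at P2.5 and 203.8, 324 and 481 CPM at P6.5. It was above the highest E17.5 cell in 75.1% of P2.5 cells, and its log2 ratio in P2.5 over E17.5 was 1.51, with a counting interval of 1.49 to 1.53. Eif1a ran the other way, with 66.9 CPM in the median cell at E17.5, 42.1 at P2.5 and 38.04 at P6.5. Its ratio of -0.91 did not reach 2-fold. It was -0.47 without the 4 libraries and -1.13, past 2-fold, with E17.5 libraries 1 to 10 alone. Per length, in FPKM (fragments scaled to gene length and to depth), Eif1ax made up a median of 51.2% of the pair at E17.5, 92.8% at P2.5 and 93.1% at P6.5. Single E17.5 cells lay anywhere between 7.06% and 90.9%, and the lowest P2.5 cell was at 51.7%, so the stages overlapped.

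Eif1b is a close copy of Eif1, the factor that guards start codon choice. Its cells ran from 29.9 through a median of 170.8 to 311.5 CPM at E17.5, from 218.4 through 422 to 829 CPM at P2.5, and from 371 through 563 to 745 CPM at P6.5. Of the P2.5 cells, 92.2% lay above the highest E17.5 cell, the largest such share among the members. The log2 ratio in P2.5 over E17.5 was 1.48 for Eif1b, or 0.98 and under 2-fold from mean FPKM, and 0.29 for Eif1. The share of Eif1b in the FPKM of the pair was less separated between stages, with medians of 39.2%, 45.9% and 47.2%. By counts, which do not divide by length, Eif1b held 19.4%, 35.7% and 37.8%. Without the 4 libraries the E17.5 median of the FPKM share was 45.5%, near that of P2.5. The log2 ratios in P2.5 over E17.5 were then 1.16 for Eif1b and 0.69 for Eif1. The 2 genes are similar in sequence and could share reads, and 12.7% of the exonic bases of Eif1b overlap another annotated gene. The remaining members of the role, Eif5 (the GTPase-activating partner of eIF2), Eif5b (which joins the subunits, at 180.6, 128.7 and 92.4 CPM in the 3 stages) and Eif1ad, had log2 ratios of 0.26, -0.49 and -0.06 in P2.5 over E17.5.

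**Figure D2:**
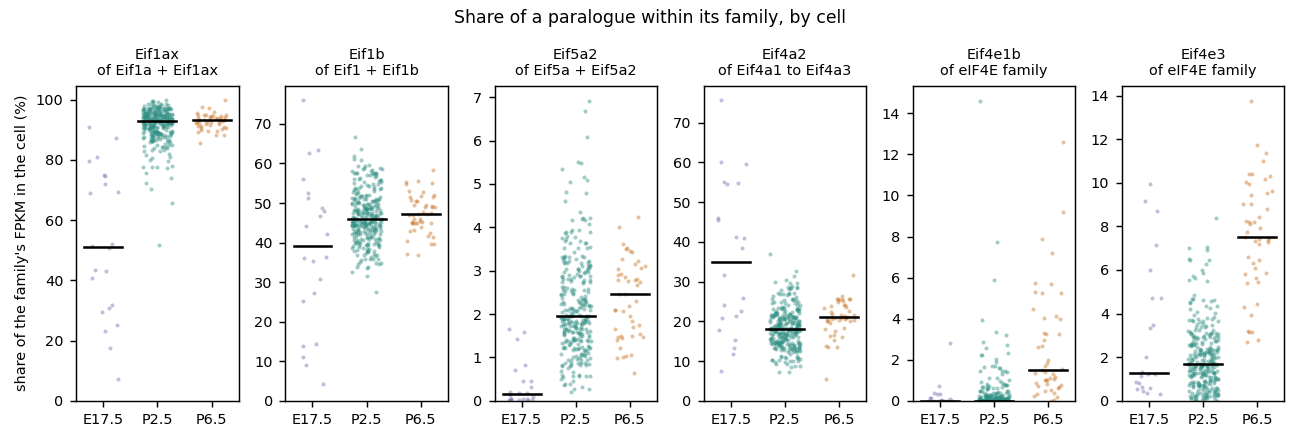
Share of a paralogue in the summed FPKM of its family, in percent, 1 point per cell and a line at the median, for E17.5, P2.5 and P6.5. The vertical axes differ between panels. Eif1ax holds 51.2% in the median E17.5 cell and 92.8% in the median P2.5 cell, while Eif4e1b and Eif4e3 stand highest at P6.5, with medians of 1.49% and 7.52%.

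Among the genes of eIF2 and its exchange factor, the subunits differed in direction. Eif2s1, the alpha subunit that the kinases phosphorylate, had 103.97, 345 and 785 CPM in the lowest, median and highest E17.5 cell, 78.2, 192.4 and 411 CPM at P2.5 and 90.4, 146.5 and 224.9 CPM at P6.5. Its log2 ratio of -1.01 in P2.5 over E17.5 was -0.98 without the 4 libraries, on the other side of 2-fold. The beta subunit Eif2s2 had a ratio of 0.04, and the X-linked gamma subunit Eif2s3x, at 85.1, 105.8 and 120.3 CPM in the 3 stages, 0.31, or 0.996 and just under 2-fold without the 4 libraries. Eif2d, which can deliver the initiator tRNA by another route, had 38.8 CPM at E17.5, 110.8 at P2.5 and 117.3 at P6.5, and a log2 ratio of 1.503 in P2.5 over E17.5. The separate gene Eif2a was at -0.49.

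In eIF2B, the exchange factor, Eif2b1 (alpha) had 25.2, 131.7 and 331 CPM in the lowest, median and highest E17.5 cell, 103.6, 380.3 and 914 CPM at P2.5 and 228.8, 378 and 502 CPM at P6.5. At P2.5, 71.3% of cells were above all E17.5 cells. Its log2 ratio in P2.5 over E17.5 was 1.398, that of Eif2b2 (beta) was 1.01, and those of Eif2b3, Eif2b4 and Eif2b5 (gamma, delta and the catalytic epsilon) were 0.17, 0.09 and -0.18. The sums of Eif2b2 were 59.6, 120.3 and 106.3 CPM and those of Eif2b5 184.7, 162.5 and 117.9 CPM, and the median cells had 129.4, 167.9 and 118.2 CPM of Eif2b3. With E17.5 libraries 1 to 10 alone the ratio of Eif2b2 was 0.81, below 2-fold. Without the 4 libraries Eif2b4 was at 0.84, and libraries 8 and 15 held 281.2 and 279.6 CPM of it, while the median of the other 18 was 55.3 CPM.

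The 4 eIF2 kinase genes, which sense different stresses, were led at every stage by 1 member in the stage sums and in the median share. Eif2ak1 (HRI, the heme-regulated kinase) had 101.7, 178.5 and 244.3 CPM in the 3 stage sums. It took a median of 62.8%, 86.9% and 89.1% of the kinase FPKM. At E17.5 its share ran from 16.7% to 95.5% in single cells and was 53.9% by summed counts. Its log2 ratios were 0.81 in P2.5 over E17.5 and 0.45 in P6.5 over P2.5, neither of them 2-fold. The first passed 2-fold in 2 of 10 other settings, among them edgeR TMM scaling, at 1.17. Eif2ak4 (GCN2, which senses uncharged tRNA) had 4.68, 35.1 and 179.6 CPM in the lowest, median and highest E17.5 cell, 0, 13.1 and 90.5 CPM at P2.5 and 3.20, 18.3 and 47.3 CPM at P6.5. Its log2 ratio in P2.5 over E17.5 was -1.59, or -1.75 without the 4 libraries. Eif2ak2 (PKR, which binds double-stranded RNA) had a median cell at 1.98 CPM at E17.5 and at 0 at P2.5 and P6.5. Its ratio of -2.87 was -2.67 without the 4 libraries, which held 39.9% of its E17.5 counts. A count of Eif2ak2 was seen in 21 of 22 E17.5 cells, 46.4% of P2.5 cells and 16 of 47 P6.5 cells, at unequal depth. With every cell thinned to 400000 counts, it was seen in 14 of 22 E17.5 cells (63.6%). At that depth the shares were 12.6% of P2.5 cells and 14.9% of P6.5 cells (7 of 47). The lower share at P6.5 than at P2.5 was therefore not seen at equal depth, while E17.5 stayed highest. Eif2ak3 (PERK, of the endoplasmic reticulum) had a log2 ratio of -0.67 from the sums, although its median cell had 12.9 CPM at P2.5 and 6.84 CPM at E17.5. The highest E17.5 cell had 95.4 CPM of Eif2ak3.

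The subunits of eIF3 differed in direction. Eif3g, which binds RNA and sits with the b and i subunits, had 58.98, 258.3 and 623 CPM in the lowest, median and highest E17.5 cell, 278.7, 855 and 1588 CPM at P2.5 and 319.8, 568 and 959.7 CPM at P6.5. Eif3k, a peripheral subunit, had 91.7, 188.95 and 345 CPM in the E17.5 cells, 233.2, 457 and 918 CPM at P2.5 and 304.9, 497 and 745 CPM at P6.5. For these 2 genes 90.4% and 88.1% of P2.5 cells were above all E17.5 cells, and the log2 ratios in P2.5 over E17.5 were 1.45 and 1.21. Eif3b, a core scaffold of the complex, was lowest in P6.5: its median cell had 153.3 CPM at E17.5, 56.1 at P2.5 and 32.1 at P6.5, and 58.7% of P2.5 cells were below the lowest E17.5 cell, at 64.2 CPM. The log2 ratio of Eif3b was -1.74 in P2.5 over E17.5 and -0.84 in P6.5 over P2.5. Eif3a, the largest core subunit, had sums of 385, 190.9 and 143.6 CPM, and Eif3i, a further core subunit, 254.5, 112.6 and 121.3 CPM. They were at -1.01 and -1.17 in P2.5 over E17.5, but at -0.72 and -0.78 without the 4 libraries. The other 9 subunit genes were within 2-fold, and the median over the 14 was -0.28. Eif3d, a subunit that can bind the cap of some mRNAs, had sums of 96.5, 105.9 and 130.9 CPM. Its log2 ratio was 0.13 in P2.5 over E17.5 and 0.30 in P6.5 over P2.5, the highest of the subunits in the second comparison.

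Per length the range of the eIF3 subunits was wider at P2.5 and P6.5 than at E17.5, and its ends differed between stages. Among 13 subunit genes, leaving out the low copy Eif3j2, the highest and lowest median FPKM were 369.7 for Eif3k and 18.2 for Eif3j1 at E17.5, a 20.4-fold range. At P2.5 they were 843 for Eif3g and 16.8 for Eif3j1, a 50.1-fold range, and at P6.5 they were 751 for Eif3k and 11.9 for Eif3b, a 62.9-fold range. Protein subunits were not measured.

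**Figure D3:**
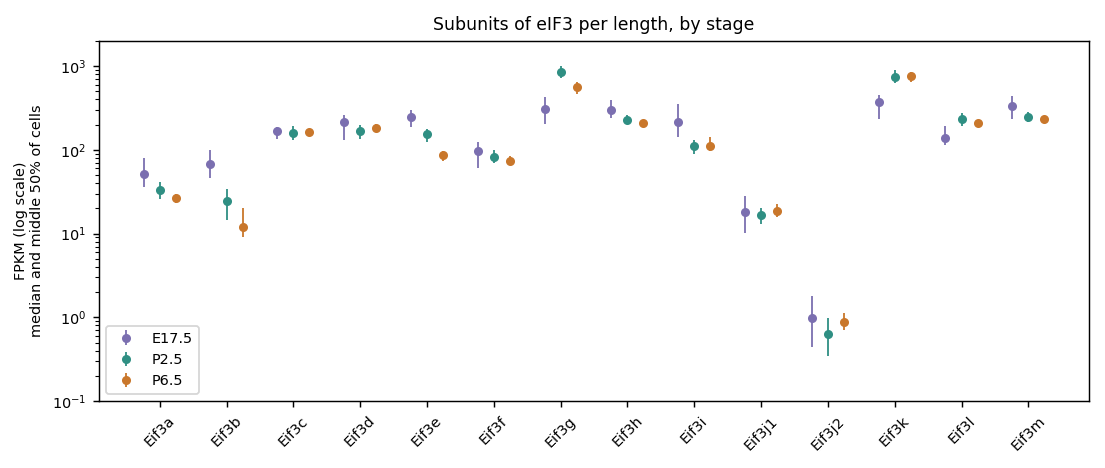
FPKM of the 14 eIF3 subunit genes by stage on a log axis, with points at the median and bars over the middle 50% of cells. Eif3g and Eif3k stand above the rest at P2.5, at 843 and 733 FPKM, and Eif3b has medians of 67.4, 24.4 and 11.9 FPKM from E17.5 on.

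Cap-binding genes were summed at a median of 687, 1099 and 938 CPM with their inhibitors at the 3 stages. Eif4e, the main cap-binding protein, had 168.3, 304.7 and 647 CPM in the lowest, median and highest E17.5 cell, 138.7, 500.4 and 1185 CPM at P2.5 and 259.6, 327 and 562 CPM at P6.5. It was the only member of its role under -0.5 in P6.5 over P2.5, at a log2 ratio of -0.67, after 0.75 in P2.5 over E17.5, and neither was 2-fold. In P2.5 over E17.5 it passed 2-fold from mean FPKM, at 1.49, and with TMM scaling, at 1.11. Eif4e2 (4EHP, which binds the cap without recruiting the scaffold) was level, with 118.6, 123.5 and 99.4 CPM. Of the eIF4E family FPKM, Eif4e took a median of 61.3%, 74.5% and 63.7% and Eif4e2 36.4%, 22.7% and 25.6%.

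Eif4e1b, on chr13:54783998-54788459 (+ strand, mm10), was the member with the largest ratio in P6.5 over P2.5. It had 0, 0 and 0.781 CPM in the lowest, median and highest E17.5 cell, 0, 0 and 106.2 CPM at P2.5, and 0.108, 7.93 and 94.7 CPM at P6.5. A count was seen in 9 of 22 E17.5 cells, in 49.5% of P2.5 cells (exact 95% interval 43.6% to 55.4%) and in 47 of 47 P6.5 cells. Every P6.5 cell was above the median P2.5 cell, and none was above the highest. The stage sums were 0.191, 2.92 and 15.2 CPM. The log2 ratio of the plain CPM values was 3.94 in P2.5 over E17.5, with a counting interval of 3.39 to 4.54 that rests on 27 counts at E17.5, and 2.37 in P6.5 over P2.5, with an interval of 2.32 to 2.42. With 0.5 CPM added they were 2.31 and 2.19. In the mean of the deposited FPKM the P2.5 over E17.5 ratio was 0.96, under 2-fold. All 9 E17.5 cells with a count were among libraries 1 to 10, and libraries 11 to 22 had 0 counts, with no label that tells the 2 ranges apart.

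The level of Eif4e1b was still low against its family. Its share of the eIF4E FPKM had a median of 0% at E17.5 and P2.5 and 1.49% at P6.5, with a highest cell of 12.6% at P6.5 and 14.6% at P2.5. Over 10 CPM were found in 22 of 47 cells at P6.5 and in 12 cells (4.10%) at P2.5, and those 12 held 57.8% of its P2.5 counts. Without the 5 highest cells the P2.5 sum was 1.66 CPM, against 2.92 CPM with them.

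Eif4e3, a further cap-binding paralogue that shares 14.8% of its exonic bases with another annotated gene, was higher at P6.5. Its lowest, median and highest cells had 0.316, 1.77 and 32.9 CPM in E17.5, 0, 5.22 and 33.97 CPM at P2.5 and 4.62, 18.9 and 47.4 CPM at P6.5. At P6.5, 97.9% of cells were above the median P2.5 cell. The log2 ratio was 1.45 in P6.5 over P2.5 and 0.49 in P2.5 over E17.5, and its share of the family FPKM had a median of 1.27%, 1.71% and 7.52%. These 2 paralogues were the members called higher in P6.5, and in each of the 7 other settings without spike-in scaling they kept a 2-fold ratio.

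**Figure D4:**
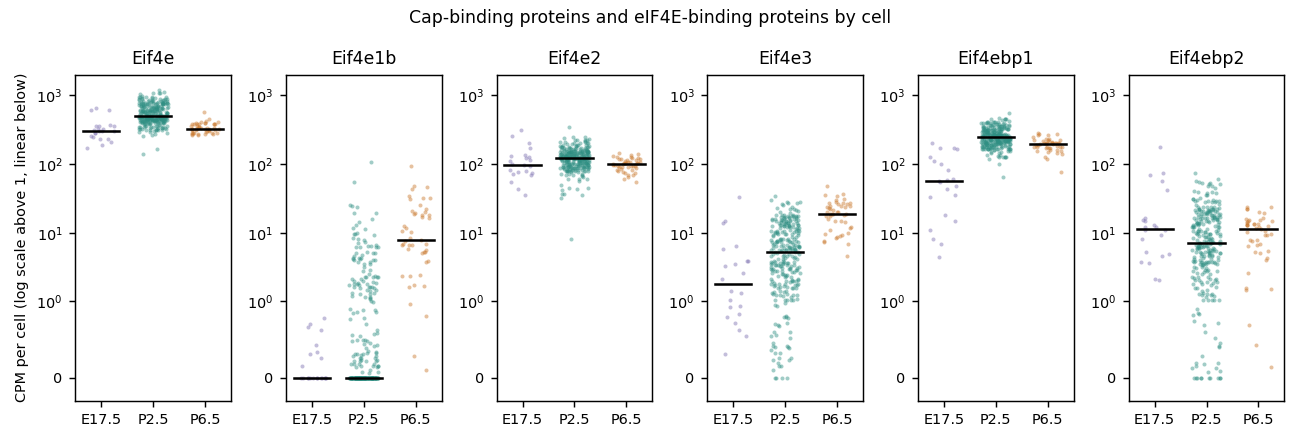
CPM of the eIF4E family and of 2 eIF4E-binding proteins, 1 point per cell and a line at the median, by stage, on an axis that is logarithmic above 1 and linear below. Eif4e and Eif4e2 keep medians between 96.8 and 500.4 CPM, Eif4e1b is at 0 in the median E17.5 and P2.5 cell and at 7.93 CPM at P6.5, and Eif4ebp1 has 55.6, 246.7 and 197.5 CPM.

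The proteins that hold eIF4E back were dominated by Eif4ebp1 (4E-BP1, a target of mTOR). It had 4.39, 55.6 and 201.97 CPM in the lowest, median and highest E17.5 cell, 65.7, 246.7 and 546 CPM at P2.5 and 76.8, 197.5 and 284.8 CPM at P6.5. The log2 ratio in P2.5 over E17.5 was 1.57, or 2.27 without the 4 libraries, which had 111.96 to 173.3 CPM each, where the median of the other 18 was 45.1 CPM. Eif4ebp2, a second gene of this kind, had 11.4 CPM in the P2.5 sum and 29.6 CPM in that of E17.5, a log2 ratio of -1.34, and 10.8 CPM in that of P6.5. Without the 4 libraries, which held 77.1% of its E17.5 counts, the ratio was 0.22, so its direction rests on them. Eif4ebp1 took a median of 77.9% of the FPKM of the binding proteins at E17.5, 98.2% at P2.5 and 97.3% at P6.5. Eif4enif1 (4E-T, which carries eIF4E to the nucleus and to RNA granules) had 147.1, 185.1 and 254.4 CPM in the median cells, a log2 ratio of 0.55 in P6.5 over P2.5, and 1 P6.5 cell at 1161 CPM.

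Helicase and scaffold genes were together lower after birth as a share of counts, at a median of 4115 CPM per cell at E17.5, 2670 at P2.5 and 2556 at P6.5. None of the 8 was called higher in P2.5, against 22.6% of all genes, and 2 were called lower, against 32.4%. Ratios were below 0 for 7 of them, with a median log2 ratio of -0.76 against -0.26 over all genes. With TMM scaling 6 were below 0, and per spike-in count all 8 were above it. Eif4a2, a paralogue of the leader-unwinding helicase, had 128.8, 700.2 and 1848 CPM in the lowest, median and highest E17.5 cell, 79.6, 286.8 and 732 CPM at P2.5 and 95.3, 312.1 and 509 CPM at P6.5. Its log2 ratio in P2.5 over E17.5 was -1.32, or -1.61 without the 4 libraries, and -0.96 with edgeR TMM scaling. Its paralogue Eif4a1 was at 0.01, with 692, 695 and 633 CPM, but at 0.36 without the 4 libraries and at -0.29 from mean FPKM. Eif4a2 took a median of 35.05%, 18.1% and 21.1% of the eIF4A FPKM, and Eif4a1 41.7%, 54.1% and 51.8%. Eif4h, a cofactor of the helicase, had 395, 185.2 and 235.2 CPM and a ratio of -1.09, or -0.76 without the 4 libraries. Eif4g2 (DAP5, a scaffold that does not bind eIF4E) stayed within 2-fold at -0.89, although 59.7% of P2.5 cells were below the lowest E17.5 cell, at 596 CPM.

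Among the late factors Eif5a2 had the highest ratio. It is a second gene for eIF5A, the hypusine-carrying protein that helps the ribosome through difficult peptide bonds. It had 0.292, 6.75 and 89.3 CPM in the lowest, median and highest E17.5 cell, 15.9, 114.8 and 294.6 CPM at P2.5 and 32.4, 85.9 and 199.5 CPM at P6.5. All P2.5 cells were above the median E17.5 cell, and 71.3% were above the highest. The log2 ratio in P2.5 over E17.5 was 2.88, or 2.54 without the 4 libraries, and in P6.5 over P2.5 it was -0.47. Eif5a itself was the most abundant member per length at E17.5 and P2.5, at 991 and 1049.9 FPKM in the median cell, and had 696 FPKM at P6.5. Eif5a2 stayed a small share of the pair, at a median of 0.150%, 1.95% and 2.47% by FPKM and 1.09%, 8.48% and 8.96% by counts. Eif6, which keeps the large subunit apart until initiation, had 211.7, 443 and 367 CPM and a log2 ratio of 1.06 in P2.5 over E17.5, or 0.96 with E17.5 libraries 1 to 10 alone.

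Of the 11 members called higher in P2.5, 7 kept a 2-fold ratio in each of 10 other settings without spike-in scaling. They were Eif1ax, Eif2b1, Eif2d, Eif3g, Eif3k, Eif4ebp1 and Eif5a2. Of the 9 called lower, 3 did so, namely Eif2ak2, Eif2ak4 and Eif3b. The share of all called genes that keeps a 2-fold ratio in every setting was not computed, for this or the later comparison. Without the 4 libraries 11 members were called higher and 4 lower, against 23.1% and 32.7% of all genes.

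To show the DNA ahead of genes that differed at P2.5, the 250 bases before the RefSeq start were read from the GRCm38.p6 promoter table, which matched 44 members. Sequences are printed for the 4 members that were called with and without the 4 libraries and have no annotated exon in that window. They are Eif2b2 and Eif1ax, both higher, and Eif2ak4 and Eif3b, both lower, each read 5′ to 3′ on the gene's strand. Capitals mark matches, on either strand, to 6 motifs. The first 3 are the TATA box, searched as TATAAA, the CCAAT box, searched under that spelling, and the GC box, searched as GGGCGG. The others are the E-box, searched as CACGTG, an ETS-type motif, searched as CCGGAAG, and a homeobox-type motif, searched as TAATTG.
Eif2b2, chr12:85219231-85219480 (+): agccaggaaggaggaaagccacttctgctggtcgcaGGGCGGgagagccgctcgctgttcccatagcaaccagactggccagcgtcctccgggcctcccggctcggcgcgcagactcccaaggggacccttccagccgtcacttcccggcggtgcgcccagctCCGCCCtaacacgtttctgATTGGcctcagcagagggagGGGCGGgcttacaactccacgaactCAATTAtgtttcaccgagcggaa
Eif1ax, chrX:159371928-159372177 (+): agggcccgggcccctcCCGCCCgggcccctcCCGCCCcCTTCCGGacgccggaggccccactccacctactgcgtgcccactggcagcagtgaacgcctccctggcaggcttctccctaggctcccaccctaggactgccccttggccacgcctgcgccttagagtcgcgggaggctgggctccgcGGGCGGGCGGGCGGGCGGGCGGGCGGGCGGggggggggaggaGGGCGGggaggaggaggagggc
Eif2ak4, chr2:118388367-118388616 (+): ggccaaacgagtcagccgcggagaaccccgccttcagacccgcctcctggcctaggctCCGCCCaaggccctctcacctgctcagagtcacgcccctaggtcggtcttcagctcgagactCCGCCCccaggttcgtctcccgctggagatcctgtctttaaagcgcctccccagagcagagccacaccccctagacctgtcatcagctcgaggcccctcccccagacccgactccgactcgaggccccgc
Eif3b, chr5:140419055-140419304 (+): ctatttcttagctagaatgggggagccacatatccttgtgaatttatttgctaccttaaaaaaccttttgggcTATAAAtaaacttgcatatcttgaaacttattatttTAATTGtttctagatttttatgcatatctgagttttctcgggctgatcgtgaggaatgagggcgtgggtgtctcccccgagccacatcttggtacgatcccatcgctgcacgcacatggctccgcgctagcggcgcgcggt
Matches were counted where they overlap. Eif1ax holds 10 GC boxes, among them a run in which neighbouring matches share letters, with 6 such overlaps, and 1 ETS-type match. No other matches shown overlap, although CCAAT and TAATTG can share letters on opposite strands. Eif2b2 holds 3 GC boxes, a CCAAT box and a TAATTG match, and Eif2ak4 holds 2 GC boxes. Eif3b holds a TATAAA match and a TAATTG match, and none to the GC box. Over the members with a promoter, GGGCGG was found in 70.5%, against 32.9% of 27025 genes of all kinds in the table, noncoding ones included. The other shares were 22.7% against 7.05% for CCGGAAG, 15.9% against 6.05% for CACGTG, 27.3% against 34.5% for CCAAT, 9.09% against 12.97% for TATAAA and 6.82% against 7.34% for TAATTG. A match is a description of letters and not a binding site.

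Between P2.5 and P6.5 few members differed. By role, 2 of 7 measured cap-binding and inhibitor genes were called higher, and no member of the other 7 roles passed 2-fold in either direction. Of all genes, 6.90% were called higher and 9.30% lower, so few calls would be found in roles of this size at those shares. The 50 members within 2-fold had log2 ratios from -0.85, for Eif3e, to 0.55, for Eif4enif1. Eif3e, a further eIF3 subunit, had 364, 233.5 and 131.6 CPM in the median cells of the 3 stages, and 0% of P6.5 cells were above the median P2.5 cell. Among the start codon factors Eif1b was highest at 0.41 and Eif5b lowest at -0.48. All 5 eIF2B genes had ratios below 0, from -0.08 for Eif2b1 to -0.50 for Eif2b3, as had the 3 late factors, from -0.27 for Eif6 to -0.56 for Eif5a. With edgeR TMM scaling, which moves the median of all genes by 0.23, Eif2b3 and Eif2b5 alone of the 5 stayed below 0, and with DESeq2 size factors Eif6 was at 0.06. Eif4h, at 0.34, and Eif4g1, at -0.18, were the ends of the helicase and scaffold role.

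Within P2.5, the coefficient of variation over cells was taken for the 44 members with at least 50 CPM. It had a median of 0.323, against 0.405 over all 4678 genes with at least 50 CPM, which were not matched in level to the members, and it ran from 0.203 for Eif3m to 0.609 for Eif3b. Each member was set against the summed CPM of 14 growth genes, such as Zp3, Gdf9 and Nlrp5, which build up in growing oocytes. Their sum had a median of 47.6, 9793 and 52113 CPM at the 3 stages. The Spearman correlations are descriptions over cells that share library and depth effects. Of the 44 members, 8 had a correlation over 0.3 and 2 under -0.3, against 13.8% and 9.39% of all genes with at least 50 CPM. The highest were Eif4g2 at 0.50 and Eif3c at 0.47, whose correlations with total counts were 0.37 and 0.43, followed by Eif2s3x at 0.40 and Eif2ak1 at 0.37. Eif5b was at -0.37 and Eif4e at -0.31. Given the total count, 3 members stayed over 0.3, Eif4g2 at 0.42, Eif3c at 0.36 and Eif2s3x at 0.32, and 2 were under -0.3, Eif3e at -0.34 and Eif5b at -0.33. With the deposited FPKM 5 were over 0.3 and 0 under -0.3, with Eif5b at -0.24 and Eif4e at -0.16.

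Eif4e1b, under the 50 CPM limit, had a correlation of 0.50 with the growth genes over the P2.5 cells, and 0.45 given the total count. After thinning each cell to 400000 counts it was 0.39, and a count remained in 24.9% of cells. Without the 12 cells over 10 CPM it was 0.47. Over the 47 P6.5 cells the correlation was 0.68 for Eif4e1b, 0.64 for Eif4enif1 and 0.53 for Eif4e3, and -0.75 for Eif3g. At P2.5 the same 4 genes were at 0.50, 0.19, 0.21 and -0.16. At P6.5, 4 of 44 members with at least 50 CPM were over 0.3 and 15 under -0.3, against 12.03% and 26.2% of all genes. The growth genes are part of the total to which CPM are scaled.

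**Figure D5:**
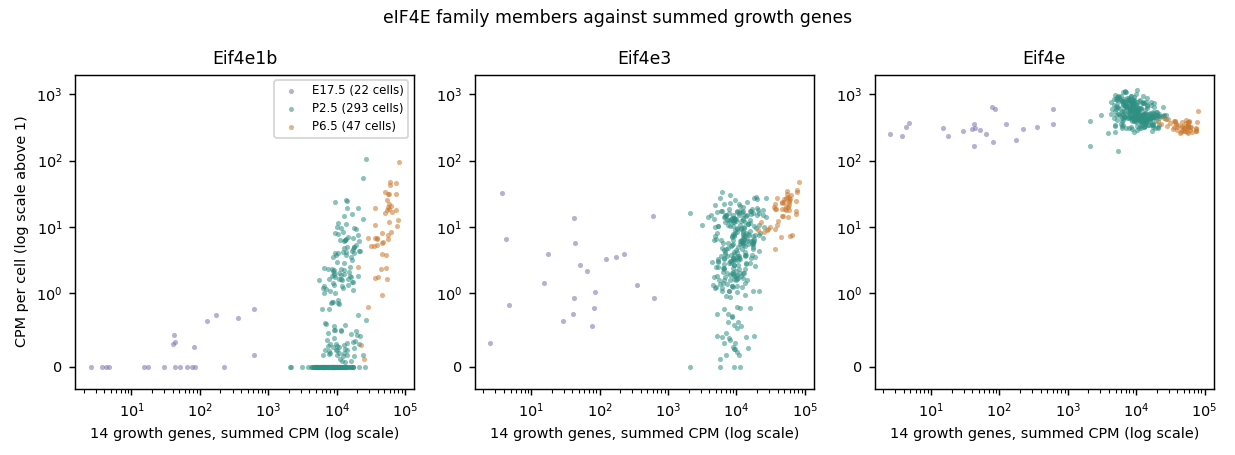
CPM of Eif4e1b, Eif4e3 and Eif4e per cell against the summed CPM of 14 growth genes, both on log axes (the vertical one linear below 1), with cells coloured by stage. Eif4e1b and Eif4e3 run upward with the growth genes within P6.5, with Spearman correlations of 0.68 and 0.53, and Eif4e does not, at -0.23.

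Most pairs of members were weakly correlated over the P2.5 cells. Among 946 pairs of the 44 members the median Spearman correlation was 0.05, against 0.02 over pairs of all genes with at least 50 CPM, whose 95th percentile was 0.28. The pairs named here lie at the ends of those 946. The closest pair was Eif4e with Eif5a at 0.70, and it was 0.69 after thinning and 0.59 over P6.5 cells, but -0.09 over the 22 E17.5 cells. Eif5, Eif2b1, Eif2s1 and Eif4ebp1 also went with Eif4e, at 0.57, 0.56, 0.54 and 0.53. Scaffold and helicase genes went the other way, with Eif4g3 at -0.53, Eif4g2 at -0.47 and Eif4a1 at -0.47 against Eif4e. Several of these values did not recur at the other stages. At P6.5 Eif4a1 was at 0.45, Eif4g2 at 0.29, Eif4g3 at 0.01, Eif4ebp1 at -0.09 and Eif2b1 at -0.23 against Eif4e, and at E17.5 Eif4g3 was at 0.50. Over P2.5 cells the germ cell marker sum moved with this contrast. Its correlation was 0.57 with Eif4e, 0.46 with Eif5a and 0.59 with Eif5, and -0.42, -0.44 and -0.44 with Eif4g2, Eif4g3 and Eif4a1. Correlations of Eif4e were -0.12 with total counts, 0.29 with genes detected, -0.10 with mitochondrial CPM and -0.12 with the sum of immediate early genes. With total counts Eif5a and Eif5 were at -0.05 and -0.08, and Eif4g2, Eif4g3 and Eif4a1 at 0.37, 0.22 and 0.32. With genes detected Eif5a and Eif5 were at 0.23 and 0.32, and the same 3 scaffold and helicase genes at 0.16, -0.06 and -0.06. The part of depth and of these sums in the contrast was not tested. Subunits of eIF3 did not form a block, with a median of 0.11 over 66 pairs, although Eif3g and Eif3k were at 0.57 and Eif3c and Eif3l at 0.55.

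Other translation genes were counted beside the members. Of 31 measured partner genes (poly(A)-binding proteins, mTOR parts, stress-response genes and others) 7 were called higher in P2.5 than in E17.5, against 22.6% of all genes, and 5 lower, against 32.4%. Without the 4 libraries these counts were 6 and 3, against 23.1% and 32.7%. Poly(A)-binding proteins differed in direction: Pabpc4 had 308.4 CPM at P2.5 and 46.8 CPM at E17.5, and Pabpc1 had 127.2 CPM at P2.5 and 480.4 CPM at E17.5, with log2 ratios of 2.71 and -1.91, or 3.73 and -1.89 without the 4 libraries. Atf4 and Ddit3, transcription factors downstream of the eIF2 kinases, were at -1.87 and -2.66, or -1.25 and -1.59 without the 4 libraries. Impact, an inhibitor of GCN2, was at 1.28, or 1.86 without them. Of 10 measured elongation and release genes 1 was called higher, the release factor copy Gspt2 at 2.24, and 2 lower, Etf1 and Eef1b2 at -1.33 and -1.24. Without the 4 libraries 3 were higher, with Eef2k at 1.87 and Eef1d at 1.01 beside Gspt2. In P6.5 over P2.5, 1 of 32 partner genes was called higher and 3 lower, against 6.90% and 9.30% of all genes, and 0 of 10 elongation and release genes in either direction. The higher one was Pabpc1l, an oocyte poly(A)-binding protein, at 9.46 CPM in P6.5 and 0.330 CPM in P2.5, with the median cell at 0 in both.

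The members not measured are accounted for as follows. Eif2c5, annotated as a noncoding RNA on the X chromosome in GENCODE M21, had 0 counts in all 362 cells. Eif2s3y, the Y-linked gamma subunit copy, was without counts at E17.5 and had them in 2 P2.5 cells and 1 P6.5 cell. Eif4ebp3 had a count in 33 P2.5 cells (11.3%) and 4 of 47 P6.5 cells and in none at E17.5, where its median FPKM was 0.670, and 67.3% of its exonic bases overlap another annotated gene. Eif2ak2 was measured only in the comparison with E17.5. In the same annotation 9 members share over 10% of their exonic bases with another gene, among them Eif3d (43.3%), Eif3j1 (20.2%), Eif4e3 (14.8%) and Eif4a2 (13.3%). The sources used here do not give the strand setting of the counting.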

How the data were processed

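The authors deposited 2 tables with a column for each library, one of raw counts and one of FPKM. The submitters' processing notes name mm10 as the build and, as tools, RSEM 1.3.3, HTSeq 0.13.5 and STAR 2.7.10b, with no link from tool to table. The deposited counts were the main measure, and the deposited FPKM served for comparisons between genes, since they divide by length. The 92 spike-in rows were left out of totals. The counts of E17.5 libraries 4 and 7 correlated slightly better with the FPKM column of another library than with their own. Library pairs with a median chi-square per gene under 1.5 (24 pairs, 0.686 to 1.03) were summed as 1 cell.

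Counts were summed over cells per stage and scaled to CPM in Python 3.11.15 with pandas 2.3.3 and scipy 1.17.1. Ratios have 0.5 CPM added, plain ratios an exact conditional Poisson 95% interval and shares of cells a Clopper-Pearson interval. Intervals cover counting error only, because amplified reads with no molecular identifier do not each stand for a molecule. Alternative scalings used edgeR 4.0.16 and DESeq2 1.42.0. The ratio step was checked on simulated counts.

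Values are given for all eIF4E and eIF4E-binding members, for members with a 2-fold ratio and at least 20 CPM, and for both ends of each role. Others named were chosen after their values were seen. The members and lists were chosen with earlier results of these data known. Promoter sequences are from RefSeq (GRCm38.p6).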

Additional observations from a re-analysis of the deposited data

How the results depend on the processing

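No paired analysis was possible because the replicate numbers only name cells and no result comes from a test. In P2.5 over E17.5 the count of members called lower, 9 as reported, was 3 with TMM scaling, 5 with DESeq2 size factors, 4 without E17.5 libraries 8, 10, 15 and 16, and 0 per spike-in count, where 49 were called higher. The median log2 ratio, -0.07 as reported, was 0.29 with TMM, 0.15 with size factors, 2.33 per spike-in count, -0.15 from mean FPKM, 0.011 from mean CPM and -0.16 with E17.5 libraries 1 to 10. In P6.5 over P2.5 the median was 0.073 with TMM, 0.17 with size factors, 2.75 per spike-in count, -0.10 from mean FPKM and -0.11 from mean CPM, and per spike-in count 53 members were called higher. These scalings move the median of all genes in the first comparison by 0.41, 0.25 and 2.37, and in the second by 0.23, 0.33 and 2.66. Per spike-in count, 79.6% of all genes were called higher in the first comparison and 94.9% in the second. In the first, 32.4% of all genes were called lower as reported, 32.7% without the 4 libraries and 5.63% per spike-in count. The share of all genes called lower was not computed with TMM scaling or size factors.

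Per spike-in count, P2.5 over E17.5 turned positive for Eif2ak4 (0.76), Eif2s1 (1.39), Eif3a (1.39), Eif3b (0.65), Eif3i (1.22), Eif4a2 (1.08), Eif4ebp2 (0.96) and Eif4h (1.31). Without the 4 libraries Eif4ebp2 was at 0.22. By summed counts the shares were 25.6% for Eif4a2 and 89.5% for Eif1ax at P6.5, 19.4%, 35.7% and 37.8% for Eif1b at the 3 stages, and 1.09%, 8.48% and 8.96% for Eif5a2. The correlation of Eif4e1b with growth genes was 0.39 after thinning. Low counts limit Eif4e1b, with 27 counts at E17.5, and Eif2ak2 at P6.5.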
